A study of Mus musculus with 6 samples.

Results

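The genes described here are the 9 rows for endoplasmic reticulum calcium release channels, calcium pumps and a counter-ion channel in the deposited counts: the IP3 receptors Itpr1, Itpr2 and Itpr3, the ryanodine receptors Ryr1, Ryr2 and Ryr3, the SERCA pumps Atp2a2 and Atp2a3, and Tmem38b, which encodes TRIC-B. They were taken by symbol from 24421 genes, and all 9 were found. RNA came from the cerebellum of 1 year old mice, from the dissected layer of Purkinje neurons together with the molecular layer. There were 3 libraries from mice labelled wild type (WT) and 3 from mice labelled STIM1 knockout (KO), called biological replicates in the series text. STIM1 senses calcium in the store and gates Orai channels at the cell surface. The labels give no strain, sex, floxed allele or Cre driver, so whether STIM1 was lost in Purkinje cells alone or in other cells of the tissue is not stated in the sources used here.

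The endoplasmic reticulum holds the calcium store of the neuron. IP3 receptors open when IP3, made by phospholipase C downstream of receptors such as mGluR1, binds together with calcium, and ryanodine receptors open on calcium itself. SERCA pumps return calcium to the store, and TRIC channels carry potassium across the same membrane to balance the charge. Purkinje cells are known for a very high content of the type 1 IP3 receptor, which is needed for calcium release in their dendrites and for long-term depression at the parallel fibre synapse.

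The libraries held 645994 to 764839 counts in genes, which was 1.16% to 1.23% of the uniquely aligned reads. The rest was almost all assigned to no gene. Stim1 had 7, 21 and 3 counts in the WT libraries (replicates 1, 2 and 3) and 4, 3 and 2 in the KO libraries (in the same order). The groups overlapped for the targeted gene, with KO replicates 1 and 2 (5.06 and 4.49 CPM) above WT replicate 3 (4.23 CPM). Y-linked genes were counted in replicate 3 of each genotype and in no other library. Which strand was counted is not stated in the sources used here. Tsix, transcribed opposite to Xist, had 2987 to 3265 counts in the libraries without Y-linked counts, where Xist had 79 to 139. In WT and KO replicate 3, which held Y-linked counts, Tsix had 2 and 1 counts and Xist 10 and 4. How far the counts below come from mRNA of the genes named or from the opposite strand was not tested.

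Markers of the labelled tissue were present. The 10 Purkinje cell markers summed to 1833 to 2207 CPM (counts per 1000000, relative to the scaled total of gene counts in the library) in WT and 1351 to 1898 CPM in KO, led by Rgs8. The 8 markers of Bergmann glia and astrocytes summed to 854 to 1028 CPM in WT and 622 to 802 CPM in KO, led by Slc1a3. The ranges for molecular layer interneurons (6 genes, led by Sorcs3) were 323 to 361 and 287 to 332 CPM, those for granule cells (7 genes, led by Cbln3) 203 to 272 and 191 to 273 CPM, and those for oligodendrocytes (6 genes, led by Cnp) 104 to 121 and 91.2 to 125 CPM. Microglia (5 genes) summed to at most 47.7 CPM, endothelial cells (4 genes) to at most 22.8 CPM, choroid plexus (3 genes, Folr1 at 0) to at most 8.94 CPM and erythrocyte genes (3 genes, Hba-a1 and Hbb-bs at 0) to at most 20.3 CPM in any library. Mural and smooth muscle genes (5 genes, led by Tagln) summed to 60.6 to 96.2 CPM over all libraries. The 6 striated muscle genes summed to 159 to 252 CPM, most of it Myh6 with a mean of 170.5 CPM. The others of this list were low, with Myh1 at 0, Myh7 at 0 to 1 counts, Actc1 at 1 to 3, Acta1 at 0 to 7 and Ckm at 8 to 20 counts in a library.

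The reads were 50 bases long, so the first question for a family of paralogues is whether such reads can tell its members apart. Coding sequences of the longest annotated coding transcripts were compared (GENCODE M21, GRCm38), and no stretch of 50 bases was identical in any of the 7 pairs compared, all within the IP3 receptor, ryanodine receptor or SERCA family. Itpr1 and Itpr2 were 71.8% identical over 7984 aligned coding bases, Itpr1 and Itpr3 70.1% over 7800. The closest 50-base stretches of Itpr1 to each paralogue are shown because the comparison of Itpr1 with Itpr2 and Itpr3 rests on them. They are written 5′ to 3′ on the coding strand, and capitals mark the bases that differ within a pair. The Itpr1 and Itpr2 stretches (chr6:108386624-108386673, plus strand, and chr6:146374562-146374611, minus strand) differ at 4 bases:
Itpr1: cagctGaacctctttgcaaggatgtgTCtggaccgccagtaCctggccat
Itpr2: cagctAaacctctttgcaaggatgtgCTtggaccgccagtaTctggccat
The Itpr1 and Itpr3 stretches (chr6:108473598-108473647 and chr17:27113863-27113912, both plus strand) differ at 3 bases:
Itpr1: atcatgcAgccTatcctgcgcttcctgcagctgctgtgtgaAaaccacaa
Itpr3: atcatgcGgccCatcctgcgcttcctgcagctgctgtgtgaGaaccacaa

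The SERCA pair came closer, with 1 difference in the most alike stretch of Atp2a2 (chr5:122459994-122460043, minus strand) and Atp2a3 (chr11:72981881-72981930, plus strand), shown for that reason:
Atp2a2: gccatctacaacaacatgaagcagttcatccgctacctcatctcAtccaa
Atp2a3: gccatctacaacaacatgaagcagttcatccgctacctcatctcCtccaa
Of 3083 such stretches of Atp2a2, 6 lay within 2 differences of Atp2a3. Ryr1 and Ryr2 also came within 1 difference at their closest, and 13 of 15134 stretches of Ryr1 were within 2. For the IP3 receptors, and for Ryr3 against Ryr1 or Ryr2, the count of stretches within 2 differences was 0. The number of differences that the alignment allowed is not stated in the sources used here.

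Itpr1 was by far the most counted of the 9 genes, and it was lower in the KO libraries by a margin that did not pass the test across all genes. The gene lies on chromosome 6, 108213096 to 108551109, plus strand. It had 1217, 1273 and 1029 counts in the WT libraries (replicates 1, 2 and 3) and 889, 886 and 822 in the KO libraries (in the same order). Scaled to library size this was 1814, 1924 and 1450.3 CPM in WT and 1125, 1325 and 1308 CPM in KO. No KO library reached the lowest WT library, with WT replicate 3 the nearest to the KO group. The mean was 1729 ± 248 CPM for WT and 1253 ± 111 CPM for KO (SD over 3 libraries each), or a log2 fold change of -0.47 (SE 0.14, 95% interval -0.76 to -0.18). The unadjusted p of edgeR's quasi-likelihood test was 0.00308 and the Benjamini-Hochberg adjusted p over 5320 tested genes 0.917. Of those tested genes 4.62% had an unadjusted p under 0.05. Groups did not overlap in 10.7% of them, with KO below WT in 5.85% and above in 4.83%. On a scale of CPM of all uniquely aligned reads, which takes in the reads in no gene, Itpr1 stood at 23.2, 22.7 and 17.6 in WT and 14.2, 15.3 and 14.4 in KO, again without overlap.

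The spread of Itpr1 between mice of 1 genotype was wider than counting error. Its SD was 4.93 times the counting SD in WT and 2.60 times in KO. For Atp2a2 these ratios were 2.21 and 2.84. For Atp2a3 they were 1.97 in WT and 2.24 in KO. For Ryr1, Ryr2, Ryr3, Itpr2, Itpr3 and Tmem38b they lay between 0.372 and 1.87.

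The summed Purkinje markers also had a lower range in KO than in WT, with overlap. Of the 9 tested, 7 were lower in KO and 2 higher, and none was called by edgeR. Named after their values were seen, Pvalb lay at a log2 fold change of -0.73 (SE 0.17), while Pcp2 lay at 0.24 (SE 0.20). For Pvalb each KO library (106 to 130 CPM) was below each WT library (170 to 210 CPM), as in 5.85% of all tested genes. For Pcp2 each KO library was above each WT library, as in 4.83% of all tested genes. The Pcp2 groups nearly met, with 89.7 CPM in KO replicate 2 and 89.4 CPM in WT replicate 1. Divided by the summed Purkinje markers of its own library, Itpr1 was 0.989, 0.872 and 0.735 in WT replicates 1 to 3 and 0.833, 0.698 and 0.768 in KO replicates 1 to 3. On this scale the groups overlapped, with WT replicate 3 below KO replicates 1 and 3, and the means were 0.865 ± 0.127 in WT and 0.767 ± 0.0675 in KO (SD over 3 libraries each). Atp2a2 divided in the same way averaged 0.168 ± 0.0290 and 0.163 ± 0.0124 (SD, n = 3 each). The part of the marker level in the lower Itpr1 count was not tested. In tissue RNA, fewer cells of a type and less RNA per cell cannot be told apart.

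**Figure D1:**
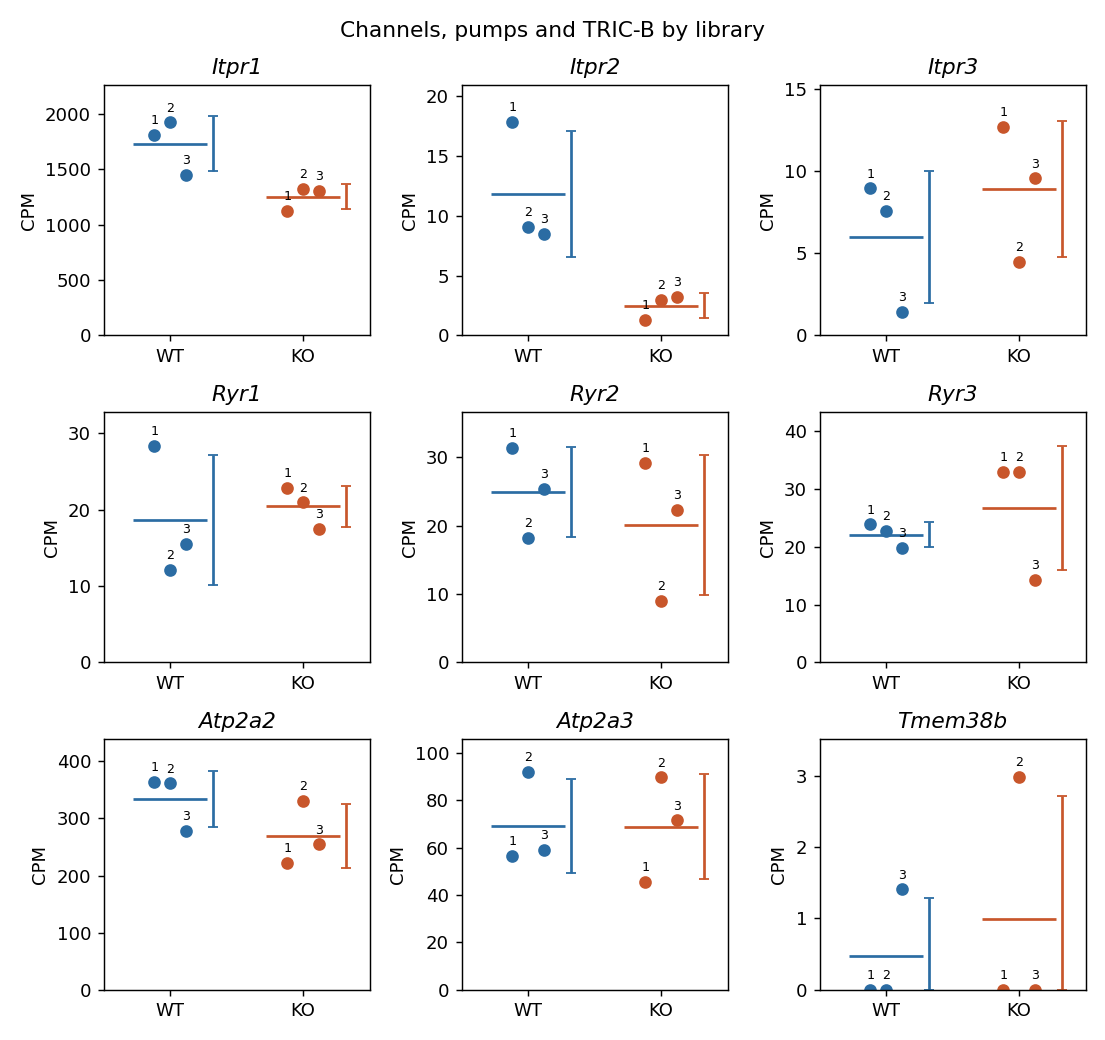
CPM of the 9 genes in each library, with the replicate number above each point, WT in blue and KO in orange; horizontal lines are means of 3 libraries and the bars beside them SDs, drawn down to 0 at most. Axes differ between panels: Itpr1 runs from 1125 to 1924 CPM with the KO points below the WT points, Itpr2 separates in the same way at 1.27 to 17.9 CPM, and the points of the other genes overlap between genotypes.

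Itpr1 held nearly all counts of the IP3 receptor family in every library. Its share of the counts in Itpr1, Itpr2 and Itpr3 was 98.5%, 99.1% and 99.3% in WT replicates 1 to 3 and 98.8%, 99.4% and 99.0% in KO replicates 1 to 3. The exact (Clopper-Pearson) 95% intervals of these shares reached from 97.7% at the lowest bound to 99.8% at the highest and overlapped between genotypes. They cover counting error only, as do the other intervals from counts given here. Itpr1 had 67.6, 115.7 and 147 counts for each count in its 2 paralogues in WT, and 80.8, 177 and 103 in KO. Libraries of both genotypes were mixed in this order. The log2 ratio, with 0.5 added to both counts, was 6.64 ± 0.55 in WT and 6.73 ± 0.54 in KO (SD over 3 libraries each). The difference of 0.090 is smaller than the spread within either genotype, and it changed sign without WT replicate 1 (-0.21) and without KO replicate 2 (-0.21).

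Itpr2, the IP3 receptor prominent in astrocytes and in heart (chromosome 6, 146108299 to 146502223, minus strand), had 12, 6 and 6 counts across the WT libraries and 1, 2 and 2 across the KO libraries, or 17.9, 9.07 and 8.46 CPM and 1.27, 2.99 and 3.18 CPM. All KO libraries lay below all WT libraries, and each KO value was under the 3 counts (3.80 to 4.77 CPM in these libraries) that a count of 0 allows. KO lay below WT in this way in 5.85% of the 5320 tested genes, which leave out Itpr2. That share was not worked out for genes at its level. The mean was 11.8 ± 5.28 CPM for WT and 2.48 ± 1.06 CPM for KO (SD, n = 3 each). The exact permutation p, two-sided, was 0.1, which is the smallest that 3 against 3 allows. The 24 counts in WT and 5 in KO give a ratio of KO over WT of 0.204, with an exact 95% interval of 0.0607 to 0.545 for counting error. Itpr2 lay below the filter of the test across genes. With no filter the edgeR quasi-likelihood test over 16540 genes gave it a log2 fold change of -2.19 (SE 0.68), an unadjusted p of 0.00129 and an adjusted p of 0.904. The glial marker sums given above, led by Slc1a3 and likewise without overlap, were lower in KO too. Of the 8 glial markers 6 were lower, while Gdf10 (log2 fold change 0.14, SE 0.32) and Aqp4 (0.076, SE 0.29) were higher. The part of these sums in the Itpr2 value was not tested.

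Itpr3, the IP3 receptor known mainly from secretory and taste cells (chromosome 17, 27057304 to 27122223, plus strand), had 6, 5 and 1 counts across the WT libraries and 10, 3 and 6 across the KO libraries. These are 8.94, 7.56 and 1.41 CPM in WT and 12.7, 4.49 and 9.54 CPM in KO, and the groups overlapped, with WT replicate 3 the lowest and KO replicate 1 the highest. The exact permutation test gave p = 0.4 (two-sided), and the ratio of KO over WT from summed counts was 1.55 (exact 95% interval 0.714 to 3.50). With no filter the edgeR test gave a log2 fold change of 0.62 (SE 0.59) and an adjusted p of 0.904.

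Compared by counts per length, Itpr1 and the 2 SERCA pumps stood apart from the other members. These levels describe the deposited counts, and how far they come from mRNA of the genes was not tested. Over the 6 libraries Itpr1 had a mean level of 81.4 CPM per kilobase of annotated exon (range 61.4 to 105.0), above 96.3% of the 15889 genes that have counts and an annotated length. Atp2a2 followed at 49.6 CPM per kilobase (36.4 to 59.8) and Atp2a3 at 13.1 (8.63 to 17.5), and the ranges of these 3 genes did not overlap. Next came Ryr3 at 1.29, Ryr1 at 0.894, Itpr3 at 0.824, Ryr2 at 0.782, Itpr2 at 0.482 and Tmem38b at 0.193 CPM per kilobase. Ryr3 lay apart from Atp2a3 above it, and from Ryr3 down each gene overlapped in range with the next. In WT, Itpr1 per kilobase was 1.72 times Atp2a2 with all annotated exons as length, and 2.35 times with the longest coding transcript.

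**Figure D2:**
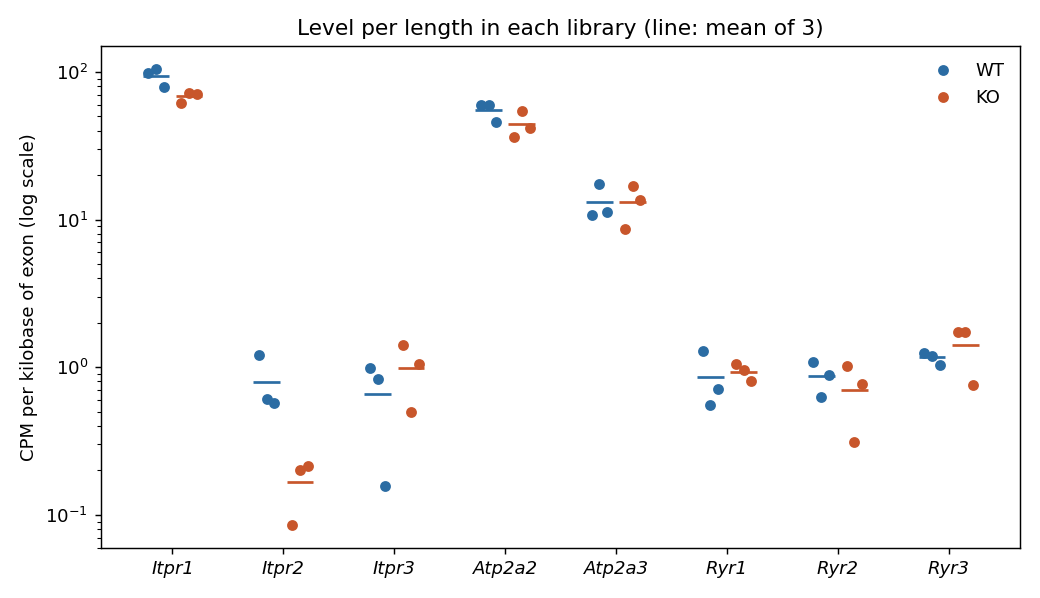
CPM per kilobase of annotated exon on a log axis for 8 of the 9 genes (Tmem38b, with counts of 0, is left out), with 1 point per library and lines at the means of 3 WT (blue) and 3 KO (orange) libraries. Itpr1, Atp2a2 and Atp2a3 stand at 8.63 to 105.0, and the ryanodine receptors, Itpr2 and Itpr3 at 0.0855 to 1.73.

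The ryanodine receptors were read at low counts in all libraries and did not separate the genotypes. Ryr1, best known as the release channel of skeletal muscle and also expressed in Purkinje cells (chromosome 7, 29003344 to 29125179, minus strand), had 19, 8 and 11 counts across the WT libraries and 18, 14 and 11 across the KO libraries, or 28.3, 12.1 and 15.5 CPM and 22.8, 20.9 and 17.5 CPM. WT replicates 1 and 2 were the highest and the lowest of all 6, with the KO libraries between them. Its log2 fold change was 0.14 (SE 0.37, 95% interval -0.65 to 0.92), and it was -0.088 without WT replicate 2.

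Ryr2, the cardiac form and a common neuronal form (chromosome 13, 11553102 to 12106945, minus strand), had 21, 12 and 18 counts across the WT libraries and 23, 6 and 14 across the KO libraries, or 31.3, 18.1 and 25.4 CPM and 29.1, 8.97 and 22.3 CPM. In both genotypes replicate 2 was the lowest. The log2 fold change of -0.29 (SE 0.38, 95% interval -1.10 to 0.52) became 0.046 without KO replicate 2. Ryr3, a form found in several brain regions (chromosome 2, 112631355 to 113217096, minus strand), had 16, 15 and 14 counts across the WT libraries and 26, 22 and 9 across the KO libraries, or 23.8, 22.7 and 19.7 CPM and 32.9, 32.9 and 14.3 CPM. KO replicates 1 and 2 lay above all WT libraries and KO replicate 3 below them. Its log2 fold change was 0.29 (SE 0.34, 95% interval -0.43 to 1.01). The edgeR adjusted p was 0.997 for each of the 3 genes. Summed over the family, ryanodine receptors had 56, 35 and 43 counts across the WT libraries and 67, 42 and 34 across the KO libraries. For each such count Itpr1 had 21.7, 36.4 and 23.9 counts across the WT libraries and 13.3, 21.1 and 24.2 across the KO libraries.

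Of the SERCA pumps, Atp2a2 was the more abundant, and its values leaned the same way as those of Itpr1 without passing the test. Atp2a2 encodes SERCA2, the main pump of neurons (chromosome 5, 122453513 to 122502225, minus strand). It had 244, 239 and 197 counts across the WT libraries and 175, 221 and 160 across the KO libraries, or 364, 361 and 278 CPM and 222, 331 and 255 CPM. WT replicate 3 and KO replicate 2 crossed, so the groups overlapped. The log2 fold change was -0.32 (SE 0.17, 95% interval -0.67 to 0.029), with an edgeR unadjusted p of 0.0702 and an adjusted p of 0.987. It was -0.20 without KO replicate 1 and -0.50 without KO replicate 2, which had the highest Atp2a2 level of its genotype. The edgeR unadjusted p was 0.0104 without KO replicate 2, 0.0249 without WT replicate 3, 0.0337 with all uniquely aligned reads as library size and 0.0379 with a replicate block, and above 0.05 in the other 12 alternatives, DESeq2 and limma-voom among them.

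Atp2a3, which encodes SERCA3 and is known in Purkinje cells as well as blood and epithelial cells (chromosome 11, 72961169 to 72993044, plus strand), had 38, 61 and 42 counts across the WT libraries and 36, 60 and 45 across the KO libraries. These are 56.6, 92.2 and 59.2 CPM and 45.6, 89.7 and 71.6 CPM, and replicate 2 was the highest in both genotypes. Both genotypes summed to 141 counts, and the log2 fold change was -0.023 (SE 0.27, 95% interval -0.58 to 0.54, edgeR adjusted p 0.997).

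Itpr1 had 4.99, 5.33 and 5.22 counts for each count of Atp2a2 in WT, and 5.08, 4.01 and 5.14 in KO. KO replicate 2 stood apart, below the other libraries, which lay close together. The log2 ratio differed by -0.14 between KO and WT with all libraries and by -0.019 without KO replicate 2. Atp2a2 had 6.42, 3.92 and 4.69 counts for each count of Atp2a3 in WT and 4.86, 3.68 and 3.56 in KO, with overlap.

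Tmem38b, the TRIC-B channel (chromosome 4, 53826045 to 53862019, plus strand), was at or near 0. It had 0, 0 and 1 counts across the WT libraries and 0, 2 and 0 across the KO libraries, all below the 3 counts that a count of 0 allows, and no difference was detectable at this depth. Among close relatives, added after their values were seen, Tmem38a, TRIC-A, had 7, 4 and 2 counts across the WT libraries and 8, 3 and 2 across the KO libraries. Atp2a1, the SERCA1 pump of skeletal muscle, had 14, 9 and 13 counts across the WT libraries and 18, 21 and 10 across the KO libraries; 763 of its 3477 exon bases are shared with Rabep2 on the other strand.

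Little annotated exon of the 9 genes is shared with a gene on the opposite strand. For Itpr1 it was 289 of 18319 exon bases (1.58%), most of them with Gm44101 (181 bases), for Atp2a2 83 bases with Gm43361, for Itpr3 233 bases with Itpr3os, and for Ryr1 914 bases, most of them with Gm26604 (864 bases). These partners were not found by symbol among the counted genes, so their counts cannot be set beside those of the members. Ryr3 shares 916 bases with Aven, an inhibitor of cell death, which had 32, 37 and 26 counts across the WT libraries and 35, 23 and 38 across the KO libraries, more than Ryr3 in all 6 libraries. As the counted strand is not stated, reads of Aven could lie in the Ryr3 count and in its level per kilobase, which was not tested. Itpr2, Ryr2, Atp2a3 and Tmem38b share fewer than 50 such bases with any single gene.

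Counting the members together, 6 of the 9 passed the filter and 3 (Itpr2, Itpr3 and Tmem38b) did not. Of the 6 tested, 4 had a log2 fold change below 0 and 2 above, with a median of -0.16, where the median of all 5320 tested genes was 0.0019. The number called at an adjusted p under 0.05 was 0, as it was over all tested genes (0%). At an unadjusted p under 0.05 there was 1, Itpr1, where 246 of all tested genes (4.62%) reached that level in the edgeR quasi-likelihood test and 96 in DESeq2. Under the 4 alternatives given above for Atp2a2 the number was 2. All tested genes at that level then numbered 280 of 5653, 283 of 5601, 238 of 5320 and 287 of 5320, in the order given there. With the DESeq2 Wald test, limma-voom and the edgeR exact test the number of members called was also 0, since these tools called 0 genes in all.

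The authors' own comparisons, made on the same 6 libraries and so not independent of the values above, list Itpr1 and Itpr2 as lower in KO. For Itpr1 the authors' deposited DESeq table lists a KO to WT fold of 0.739 (unadjusted p = 0.0122), and for Itpr2 a fold of 0.215 (p = 0.00239). The authors' deposited edgeR table lists log2 ratios of WT over KO of 0.45 for Itpr1 (p = 0.0139) and 2.19 for Itpr2 (p = 0.00168). Atp2a2 had p = 0.160 by DESeq and p = 0.156 by edgeR in the authors' deposited tables, and the other 6 genes had at least 0.384 by DESeq and 0.410 by edgeR. Atp2a3 stood at a KO to WT fold of 1.02 in the authors' deposited DESeq table, on the other side of 1 from the value above.

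Genes that work with these channels and pumps were described from a list of 83, of which 75 were matched by symbol and 43 were tested. Of the 43, 27 lay lower in KO and 16 higher (62.8% lower, against 49.7% of all tested genes), with a median log2 fold change of -0.094. The number called was 0. At an unadjusted p under 0.05 there were 6 lower and 0 higher, where 3.05% of all tested genes were lower and 1.58% higher at that level. The 6 are 14.0% of the 43. That number was 2 of 43 with DESeq2, where all tested genes at that level numbered 96 of 5320. It was 3 of 44 without WT replicate 2, where all tested genes numbered 236 of 5697. When the libraries with Y-linked counts were both left out, it was 7 of 44, where all tested genes numbered 257 of 5514. Groups did not overlap in 6 of the 43, all with KO below WT. Of all tested genes 5.85% lay so, and 4.83% had KO above WT.

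By role, the groups hold only 4 to 9 tested genes, so their counts are description and carry no test. Of all tested genes 49.7% were lower, and 3.05% were lower at an unadjusted p under 0.05 in edgeR's test. Among 9 tested partners of ryanodine receptors 7 were lower, with 3 at that level. Casq2, a calcium buffer inside the store, averaged 46.2 ± 9.51 CPM for WT and 28.4 ± 4.76 CPM for KO (SD over 3 libraries each), or a log2 fold change of -0.70 (SE 0.27). Fkbp1a, the FKBP12 protein that binds the channels, lay at -0.71 (SE 0.29). In both genes each KO library was below each WT library, as in 5.85% of all tested genes.

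IP3 receptor partners had 5 of 8 tested genes lower. Hspa9, the mitochondrial chaperone that links IP3 receptors to mitochondria, lay at -0.43 (SE 0.20), and Car8, a carbonic anhydrase relative that lowers the affinity of the type 1 receptor for IP3 in Purkinje cells, at -0.33 (SE 0.22) with overlap between genotypes. Of 4 tested ER leak genes, Tmbim6, which encodes Bax inhibitor 1, lay at -0.51 (SE 0.18) and its relative Grina at -0.65 (SE 0.29), both without overlap, and the other 2 were higher. Calcium pumps and SERCA regulators had 6 of 7 tested genes lower and a median of -0.37, with the plasma membrane pumps Atp2b2 at -0.52 (SE 0.27) and Atp2b3 at -0.57 (SE 0.32), both with overlap. Luminal calcium binding proteins had 4 of 7 lower and a median of -0.0016, with Hspa5 (BiP) at -0.22 (SE 0.22) and Sdf4 at -0.22 (SE 0.26). Genes of IP3 production and removal had 3 of 8 lower and 5 higher, with Plcb4, the phospholipase C of most Purkinje cells, at -0.32 (SE 0.21) and Itpkb, an IP3 kinase, at 0.16 (SE 0.22). The edgeR adjusted p was at least 0.917 for each of these named genes.

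**Figure D3:**
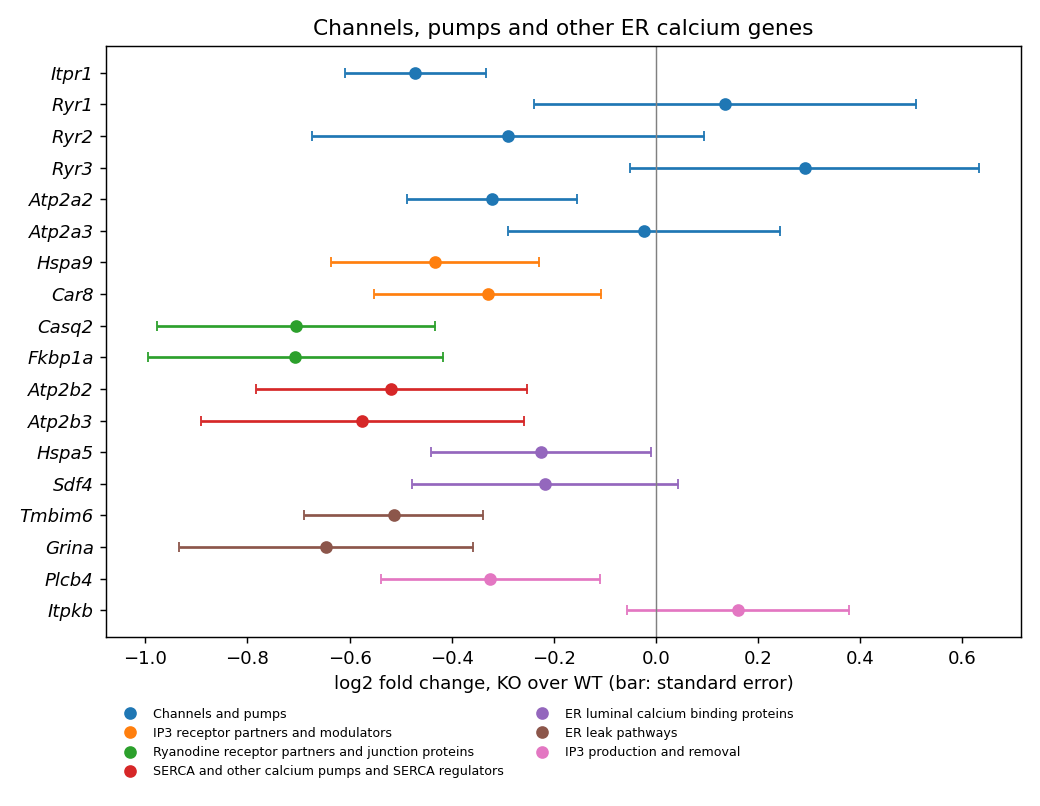
Log2 fold change of KO over WT with its standard error from edgeR for the 6 tested channels and pumps and 12 named partners, coloured by role. Points left of the grey line are lower in KO; Itpr1 at -0.47 has the smallest standard error of the 18, and Ryr1, Ryr3 and Itpkb lie to the right.

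The genes whose level followed Itpr1 most closely across libraries were taken from 1696 tested genes with a mean count of 50 or more. The Pearson r of log2 CPM with Itpr1 over the 6 libraries was 0.990 for Rrp7a, a ribosomal RNA processing factor, 0.956 for Eif5, a translation initiation factor, 0.949 for Ywhae, a 14-3-3 protein, 0.943 for Setd7, a lysine methyltransferase, and 0.932 for Elf1, an ETS transcription factor. With 6 points that share the 2 genotypes, these values describe the order of the libraries and carry no test. Rrp7a stood at 227, 233 and 193 CPM in WT and 171, 193 and 189 CPM in KO. Among the tested members the same r was 0.870 for Atp2a2, 0.403 for Atp2a3, 0.083 for Ryr2, -0.22 for Ryr3 and -0.24 for Ryr1.

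The direction of Itpr1 did not depend on a single library or tool among those tried. Its log2 fold change lay between -0.62, with both Y-linked libraries left out, and -0.39, without WT replicate 2, and its adjusted p was at least 0.779 in all 16 alternatives.

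**Figure D4:**
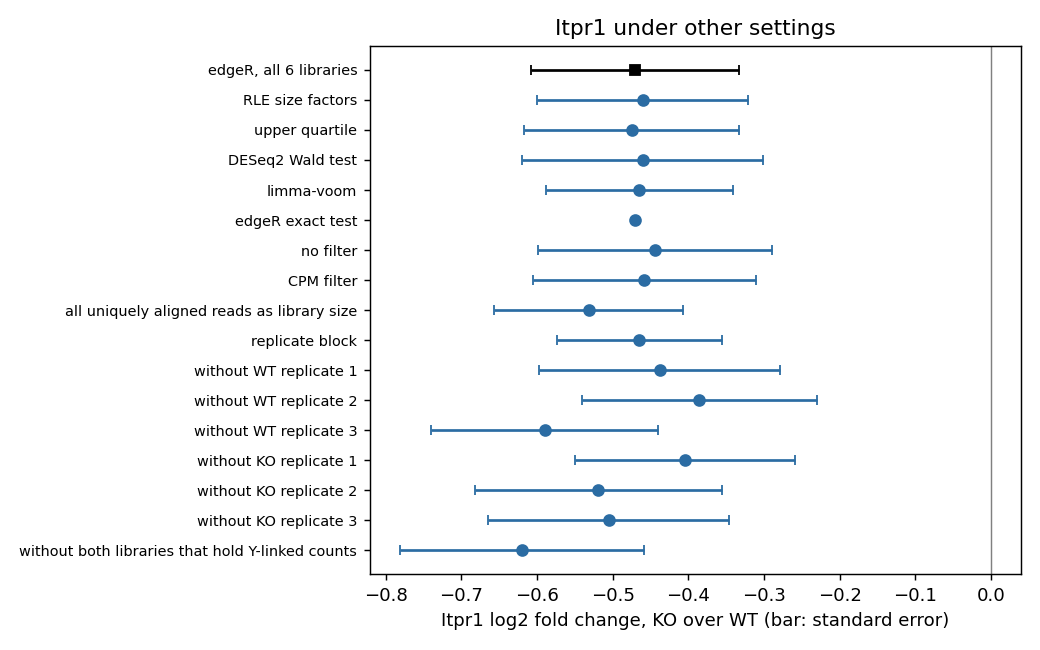
Log2 fold change of Itpr1, KO over WT, with its standard error (the edgeR exact test gives none) for all 6 libraries (black square) and for 16 other settings (blue). The points span -0.62 to -0.39, left of the grey line at 0.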

How the data were processed

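Per the labels' protocols, about 500 ng of TRIzol total RNA per sample (average RIN 8.2) went into TruSeq mRNA libraries, read from 1 end for 50 bases on an Illumina HiSeq. The submitters' processing notes name TopHat, HTSeq 0.9.1, DESeq, edgeR and GRCm38 (mm10); neither the annotation counted nor the strand setting is stated in the sources used here. The authors deposited whole-number counts per gene symbol for each library. Their DESeq results, also deposited by the authors, hold a mean normalised signal, a ratio (fold change) and its p-value. The deposited edgeR results of the authors hold a log2 ratio and its p-value. HTSeq rows that name no gene entered neither library sizes nor tests; reads in no gene were 98.76% to 98.84% and ambiguous reads 0.00416% to 0.00492% of uniquely aligned reads.

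KO was compared with WT by edgeR 4.0.16 in R 4.3.3 (quasi-likelihood test, TMM factors of 0.954 to 1.04, filterByExpr at its minimum count of 10; calls at a p under 0.05 after Benjamini-Hochberg adjustment over 5320 genes), with no covariate. CPM used full gene totals times the TMM factor. Standard errors come from the F statistic. Genes below the filter were compared by exact permutation of CPM. Lengths, positions and coding sequences are from GENCODE M21 (GRCm38), with a length for 96.1% of the 16540 genes with counts; an opposite-strand partner shares at least 50 exon bases. Library pairs of a genotype differed by more than counting noise (chi-square per degree of freedom at least 3.16). The code was tested on simulated counts. Alternatives used DESeq2 1.42.0, limma-voom (limma 3.58.1), the edgeR exact test, other scalings and filters, a replicate block and fewer libraries. Members and lists were chosen with earlier results of these data known. Partners are named by unadjusted p under 0.05 or, where a role has fewer than 2, by the 2 lowest p, opposite-strand genes by the longest shared exon, with 1 gene that the rule names not reported here, genes like Itpr1 by the 5 highest r, and markers by the highest gene of a list.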

Additional observations from a re-analysis of the deposited data

Results flagged for a closer look

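On average 98.8% of uniquely aligned reads were assigned to no gene, a signal outside the counts used here; those reads were not analysed here.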

How the results depend on the processing

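No gene was called with 6 libraries under other scalings, a CPM filter, DESeq2, limma-voom or the edgeR exact test; 6 were called with no filter on low counts, none of them a gene described above. Leaving out each library gave 0 to 1, and leaving out both libraries that hold Y-linked counts, an alternative chosen after the data were examined, gave 1; the single gene was Erdr1 both times, and the cause was not tested. Genes at an unadjusted p under 0.05 numbered 246 of 5320 tested. This became 96 of 5320 by DESeq2, 386 of 8962 by the CPM filter and 638 of 16540 by testing all genes with a count. Partner genes at that level numbered 6 of 43, against 2 of 43 with DESeq2 and 10 of 68 with no filter. Without WT replicate 2 they numbered 3 of 44, where all tested genes numbered 236 of 5697. Leaving out each library, log2 fold changes ranged from -0.59 to -0.39 for Itpr1, from -0.50 to -0.20 for Atp2a2, from -0.088 to 0.56 for Ryr1, from -0.70 to 0.046 for Ryr2, from 0.10 to 0.57 for Ryr3 and from -0.27 to 0.23 for Atp2a3, which was 0.0021 with no filter. The log2 ratio of Itpr1 to its paralogues, 0.090, ranged from -0.21 to 0.32 leaving out each library. The ratio of mean CPM of Itpr2, -2.25 on the log2 scale, ranged from -2.48 to -1.83 and that of Itpr3, 0.58, from 0.10 to 0.98. Deviations of samples with equal replicate numbers correlated at 0.143, 0.0795 and 0.122 and the labels name no pairing. The replicate block called 0 genes and gave Itpr1 -0.46 (edgeR adjusted p 0.906). With it 8 of 43 partner genes, and 287 of all 5320 tested genes, had an unadjusted p under 0.05. The coding transcript as length and the ratio of Itpr1 to Atp2a2 with libraries left out were also chosen after the data were examined. Depth limits the genes with few counts most: the 95% interval of Ryr2 spans -1.10 to 0.52.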
